A study of Drosophila melanogaster with 9 samples.

Results

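The expression of 10372 genes was compared between fat bodies of Drosophila melanogaster larvae that had been induced to make an active insulin receptor and the average of both uninduced groups. The induced larvae (InRCA_HS) came from virgin females with the hs-GAL4 driver, mated with males of stock 8263, which carry the transgene UAS-InR.A1325D. They were heated to 37 °C for 30 min. One uninduced group (control_HS) came from the same driver females mated with males of stock 6598 (y1w1118), which lack the transgene, and was heated in the same way. The other (InRCA_noHS) came from the stock 8263 cross, received a fresh vial in place of the heat and stayed at 25 °C. All larvae were feeding females in the middle of the third instar. Shearing and centrifugation freed their fat bodies when 6 h had passed, and RNA was sequenced after removal of ribosomal RNA. The comparison used all 9 libraries of the series, 3 per group, and all genes of the deposited table. Each gene's log2 difference is its InRCA_HS mean minus the average of the control_HS and InRCA_noHS means, each with a weight of 0.5, in a single limma fit of log2(adjusted count + 1). Adjusted counts are, as judged from the values, the authors' counts brought to a common library size. Their sums were still unequal. They ranged over 10625545 to 12145829 in InRCA_HS, 11708204 to 15514912 in control_HS and 11759092 to 13903828 in InRCA_noHS. Unheated larvae of the stock 6598 cross were not analysed here. Whether a group's libraries stem from different cultures is not stated in the labels, so p-values measure the spread between these libraries, which may be technical.

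The fat body stores triglyceride and glycogen, secretes most proteins of the larval blood and sends hormonal signals about nutrition to other organs. Insulin-like peptides bind the insulin receptor InR, which acts through the kinases PI3K and Akt. Akt keeps the transcription factor FOXO out of the nucleus and so lowers the expression of FOXO's target genes, and the pathway also feeds the growth kinase TOR. The A1325D substitution makes the receptor active without its ligands. The hs-GAL4 driver responds to heat in tissues throughout the larva, and the receptor was not measured in other organs here.

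Averaging 2 groups has an arithmetic that bears on every value. The male stock differs between InRCA_HS and control_HS, and heat differs between InRCA_HS and InRCA_noHS, so that each enters the contrast with a weight of 0.5. A gene that is alike in InRCA_HS and one uninduced group, and far away in the other, therefore also gives a difference from the average. For this reason each call was read together with the 9 single values, and a gene is said to stand apart where all 3 InRCA_HS libraries lay above, or all 3 below, the 6 other libraries.

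Reads recovered from the table summed to between 8760491 and 17599638 per library. Across genes, log2 values of library pairs correlated at r = 0.962 to 0.98 inside a group and at 0.934 to 0.967 otherwise. On the second principal component, with 17.9% of the variance, the InRCA_HS libraries scored 13.7 to 41, and all other libraries scored 5.2 or less. The first, with 33.3%, placed InRCA_HS (-15.2 to 12.2) between control_HS (14.8 to 55.6) and InRCA_noHS (-34.1 to -27.3). Replicate 1 of control_HS fitted its group least well, with an array quality weight of 0.42 against 0.792 to 1.55 in the others. All 11 fat body markers had at least 996 adjusted counts in every library.

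After adjustment over all genes, 143 of 10372 genes (1.38%) differed between InRCA_HS and the average at the threshold of 0.05 and are said to be called. InRCA_HS was higher in 91 (0.877%) and lower in 52 (0.501%). An unadjusted p under 0.05 was reached by 1535 genes, and the median log2 difference of all genes was -0.07. DESeq2 on recovered reads called 298 genes higher and 181 lower. Limma without control_HS replicate 1 called 130 higher and 288 lower. Of the 91 genes that were higher, 60 (0.578% of all genes) stood apart above the 6 other libraries. Of the 52 that were lower, 46 (0.444%) stood apart below them. Over all genes, called or not, 1.9% lay above and 4.09% lay below in all 3 InRCA_HS libraries, 5.99% together. For InRCA_HS against control_HS alone 2.43% of all genes passed the threshold, and for InRCA_HS against InRCA_noHS alone 2.55% did; each shares its libraries with the average.

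In 36 of the remaining 37 calls InRCA_HS overlapped one uninduced group, and in the other, CG32335, it lay between the groups without overlap. Among the higher genes, 18 overlapped control_HS only, 12 overlapped InRCA_noHS only and 0 overlapped both. Among the lower genes, 2 overlapped control_HS only and 4 overlapped InRCA_noHS only. The difference from the average had the other sign against one of the groups in 6 of the higher genes and in 1 of the lower genes. In 37 of the 91 higher genes and 12 of the 52 lower genes, InRCA_HS differed at least 2-fold from each group's mean, as it did in 86 and 76 of all genes. The uninduced groups themselves differed in 54 of the higher and 14 of the lower genes, against a background of 7% of all genes for InRCA_noHS against control_HS.

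**Figure D1:**
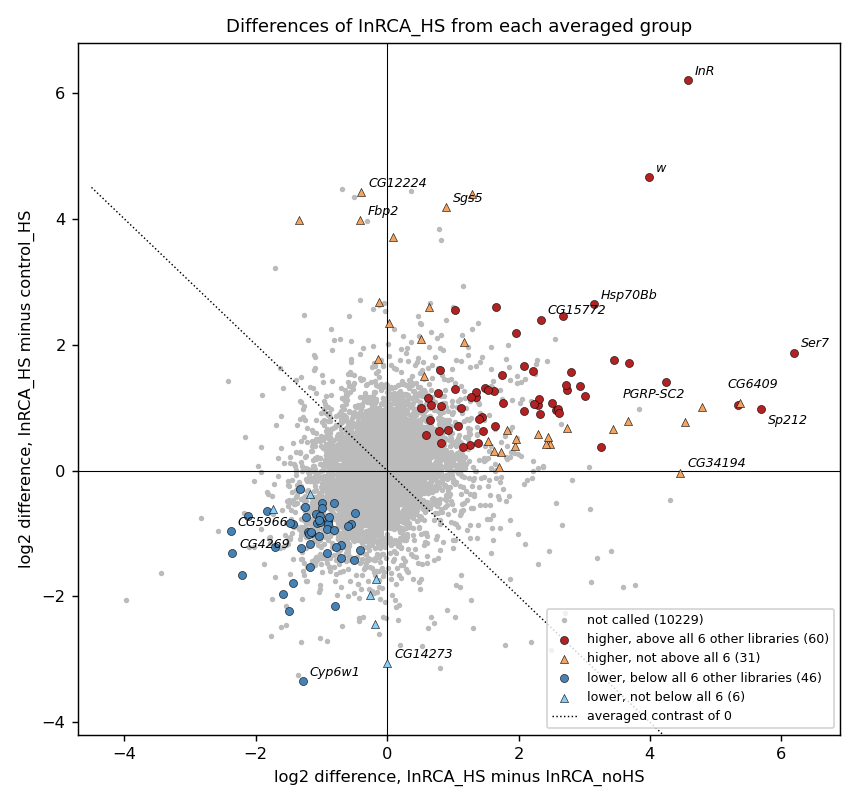
Each point is a gene, placed by its log2 difference of InRCA_HS minus InRCA_noHS (horizontal) and of InRCA_HS minus control_HS (vertical), and genes past the threshold are coloured by direction and by whether InRCA_HS stood apart. InR and w lie far from 0 on both axes, while Fbp2, CG12224 and CG34194 lie far from 0 on one axis and near 0 on the other.

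InR (FBgn0013984), the gene of the insulin receptor itself, had 66688, 47774 and 60402 adjusted counts in InRCA_HS, against 743, 785 and 826 in control_HS and 1821, 3662 and 2128 in InRCA_noHS. Every InRCA_HS library was far above every other one. The log2 difference from the average was 5.39 (SE 0.21, adjusted p = 6.63e-07), which is 41.9-fold, the largest of all genes. The uninduced groups were not alike, since InRCA_noHS exceeded control_HS by 1.62 (log2, adjusted p = 0.00467). Reads of the transgene and of the resident gene cannot be told apart in the table.

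The gene w (white), which encodes an ABC transporter of eye pigment precursors and is widely used to mark transgenes, came second. It had 1492, 1302 and 1229 adjusted counts in InRCA_HS, against 52.4, 38.6 and 69 in control_HS and 72, 112 and 71.8 in InRCA_noHS. Its difference was 4.32 (log2, SE 0.21, adjusted p = 3.41e-06), and the highest control_HS library lay just under the lowest InRCA_noHS library. Pu, which encodes GTP cyclohydrolase, the first enzyme of pteridine synthesis, was also higher, 2.63-fold (adjusted p = 0.00682). It averaged 5349 ± 1385 adjusted counts in InRCA_HS, against 2141 ± 403 in control_HS and 1875 ± 273 in InRCA_noHS (SD, n = 3 each). The genes w and Pu were the only calls among 12 genes of pigment synthesis and transport (16.7% higher, against 0.877% over all genes). InR, w and Pu passed the threshold in all 9 fits that each left out 1 library.

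**Figure D2:**
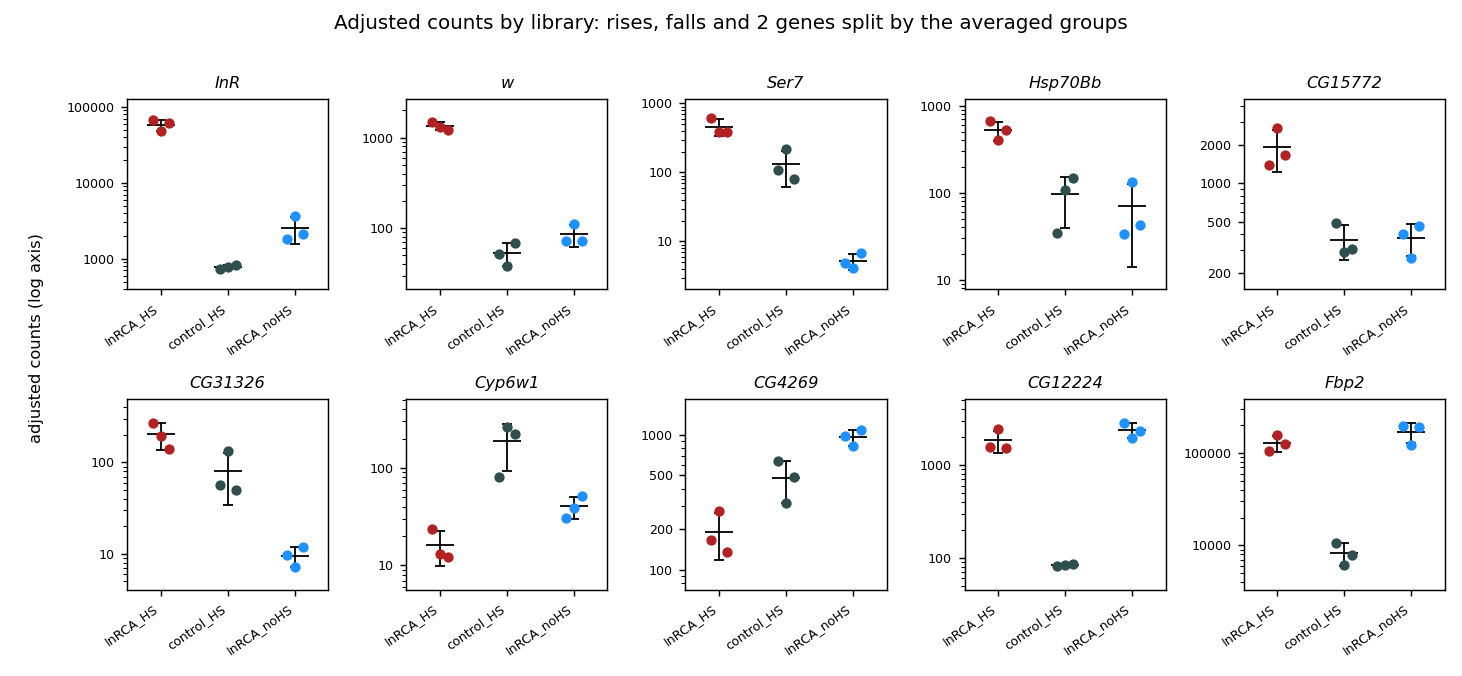
Adjusted counts (log axis) of 10 genes in each library, with the mean and SD of each group of 3. InRCA_HS stood above all other libraries for InR, w, Ser7, Hsp70Bb, CG15772 and CG31326 and below them for Cyp6w1 and CG4269, whereas it overlapped InRCA_noHS for CG12224 and Fbp2.

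After InR and w, several of the next 14 largest rises among genes that stood apart were in proteases and cuticle proteins that differed strongly between the uninduced groups. Ser7, a serine protease, had 607, 387 and 392 adjusted counts in InRCA_HS, against 108, 215 and 79.6 in control_HS and 4.89, 4.13 and 6.77 in InRCA_noHS. The groups did not overlap, and InRCA_HS was 3.66-fold above control_HS but 73.3-fold above InRCA_noHS. Its difference from the average was 4.03 (log2, SE 0.31, adjusted p = 0.000158). Sp212, another serine protease gene, showed the same order of groups, with a difference of 3.33 (adjusted p = 0.0135), and CG6409 gave 3.20 (adjusted p = 0.000422). For both, InRCA_HS was about as far from control_HS as the threshold for 2-fold, at 1.96-fold and 2.07-fold, and most of the difference lay against InRCA_noHS. CG31326, Cpr11A, CG42808, CG15117 and obst-E also had control_HS between InRCA_HS and InRCA_noHS, with differences from the average between 2.10 and 2.83 (log2). Against control_HS alone Cpr11A passed the threshold (limma, adjusted p = 0.0392). CG42808 (0.0696), CG31326 (0.0814), CG15117 (0.202) and obst-E (0.204) did not, nor did CG6409 (0.108) and Sp212 (0.429). Cpr11A is a cuticle protein, and obst-E binds chitin.

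For CG15772, CG4991, CG1139 and b6 the uninduced groups overlapped, whereas for CG14636 control_HS lay below InRCA_noHS. CG15772 had 1392, 2696 and 1665 adjusted counts in InRCA_HS, against 484, 289 and 303 in control_HS and 401, 258 and 466 in InRCA_noHS. It was 5.27-fold above control_HS and 5.05-fold above InRCA_noHS, with a difference from the average of 2.37 (log2, SE 0.26, adjusted p = 0.00286). CG4991 had 28.2, 35 and 44.5 adjusted counts in InRCA_HS, 4.84, 5.81 and 6.41 in control_HS and 2.19, 4.13 and 10.3 in InRCA_noHS. It belongs to the same family of proton-assisted amino acid transporters as CG1139 (acs in the current annotation). CG1139 was higher by 2.18 (log2, adjusted p = 0.0395), with 909, 634 and 441 adjusted counts in InRCA_HS, against 295, 148 and 225 in control_HS and 55.8, 225 and 57.2 in InRCA_noHS. Another family member, path, was lower (difference -0.75, adjusted p = 0.0374) and was chosen for mention after its values had been seen. The gene b6 was higher by 2.07 and CG14636 by 2.13 (log2).

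Calls for these genes differed in how far they depended on single libraries. Ser7, CG6409, CG31326, Cpr11A and CG15772 passed in all 9 leave-one-out fits. Sp212 passed in 7, with its highest adjusted p (0.069) without InRCA_HS replicate 1. CG14636 passed in 2, and its InRCA_HS values were widely spread, at 1662, 473 and 244 adjusted counts, against 106, 104 and 75.6 in control_HS and 173, 176 and 198 in InRCA_noHS. CG1139 passed in 3, with its highest adjusted p (0.185) without InRCA_HS replicate 1. CG42808 passed in 8, CG4991 in 7, obst-E and b6 in 3 each and CG15117 in 2. The InRCA_HS values of CG15117 were 371, 78.4 and 69.35 adjusted counts, against 55.3, 56.8 and 38.2 in control_HS.

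The 14 largest falls among genes that stood apart included cytochrome P450 genes, a glucosidase, a lipase, the insulin-like peptide Ilp6 and the hormone receptor GRHR. Cyp6w1, a cytochrome P450, had 23.7, 13.2 and 12.1 adjusted counts in InRCA_HS, against 80.4, 264 and 222 in control_HS and 30.9, 39.1 and 51.3 in InRCA_noHS. All 3 InRCA_HS libraries were below the lowest other one, and the difference from the average was -2.32 (log2, SE 0.38, adjusted p = 0.0177). CG4269 had 168, 274 and 135 adjusted counts in InRCA_HS, against 638, 313 and 485 in control_HS and 969, 819 and 1080 in InRCA_noHS, a difference of -1.84 (adjusted p = 0.00775). Cyp28d1, another P450, differed by -1.46 (log2), and CG8129, annotated as Srr, by -1.61. The gene aay, which encodes phosphoserine phosphatase, the last step of serine synthesis, had 214, 290 and 347 adjusted counts in InRCA_HS, against 496, 907 and 615 in control_HS and 881, 658 and 577 in InRCA_noHS. Its uninduced groups overlapped, and its difference was -1.27 (log2, adjusted p = 0.0222). Vha100-4, a subunit of the vacuolar proton pump, differed by -1.36, and CG8492, CG14072, CG3588 and CG34007 by -1.93 to -1.42. CG14072 and CG34007 were low genes, with 1.6, 3.81 and 1.985 and with 4.11, 4.72 and 6.34 adjusted counts in InRCA_HS. CG14072 passed in 6 leave-one-out fits and CG34007 in 1. The others among the 14 (tobi, CG5966, Ilp6 and GRHR) are described with their pathways. Against InRCA_noHS alone, Cyp6w1 (limma, adjusted p = 0.189), CG3588 (0.264), tobi (0.133), CG8492 (0.0636) and Vha100-4 (0.0598) missed the threshold. Against control_HS alone, Cyp28d1 (limma, adjusted p = 0.09), CG34007 (0.282) and Ilp6 (0.0793) missed it. Cyp6w1 passed in 8 of the 9 leave-one-out fits, CG4269 in 8 and aay in 5; Cyp28d1 passed in 1, with its highest adjusted p (0.159) without InRCA_HS replicate 1.

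The 6 calls in which the uninduced groups lay furthest apart, relative to the contrast, were CG32335, Fbp2, CG12224, NT5E-2, CG42835 and CG34194. InRCA_HS overlapped one uninduced group in each of them except CG32335, where it overlapped neither. Fbp2, an abundant fat body protein related to alcohol dehydrogenase, had 104160, 155030 and 123840 adjusted counts in InRCA_HS, against 10683, 6081 and 7906 in control_HS and 198420, 122650 and 192270 in InRCA_noHS. Both groups of the stock 8263 cross were high, and InRCA_HS was 15.7-fold above control_HS. Against InRCA_noHS the log2 difference of Fbp2 was -0.41 (adjusted p = 0.603), yet the difference from the average was 1.78 (adjusted p = 0.0135).

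CG12224 followed the same pattern, with 1560, 2438 and 1548 adjusted counts in InRCA_HS, against 80.5, 83.6 and 86.2 in control_HS and 2870, 1969 and 2358 in InRCA_noHS. CG32335 had 139, 140 and 152 adjusted counts in InRCA_HS, between 4.82, 11.5 and 9.62 in control_HS and 424, 312 and 367 in InRCA_noHS. It lay below the transgene cross without heat and above the heated control, and its difference from the average was 1.32 (log2, adjusted p = 0.0283). CG34194 was split the other way, with 122, 165 and 164 adjusted counts in InRCA_HS, against 131, 168 and 159 in control_HS and 2.29, 10.2 and 7.55 in InRCA_noHS. It matched the heated control, with a log2 difference of -0.03 from control_HS and 4.46 from InRCA_noHS. NT5E-2, an ecto-nucleotidase, and CG42835 overlapped InRCA_noHS, with differences from the average of 0.82 and 1.28 (log2). Such calls describe a distance from the average and not a distance from each group. CG12224 nevertheless passed in all 9 leave-one-out fits, and Fbp2 in 8.

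Of 16 genes of the path between the insulin receptor and FOXO, only InR passed the threshold (6.25% higher, against 0.877% over all genes). Their median log2 difference was -0.08, against -0.07 over all genes. The nearest to the threshold were melt, a membrane regulator of the pathway, with -0.71 (log2, adjusted p = 0.0749), and Lnk, an adaptor of the receptor, with -0.47 (adjusted p = 0.0852). Lnk had 285, 258 and 282 adjusted counts in InRCA_HS, against 396, 380 and 413 in control_HS and 371, 365 and 362 in InRCA_noHS. Its InRCA_HS values were below all others. The mRNA of foxo itself differed by -0.10 (adjusted p = 0.823), and that of Akt1 by 0.12 (adjusted p = 0.77). Of 17 genes of the TOR branch, limma called 0; 1 had an unadjusted p under 0.05, and edgeR and DESeq2 also called 0.

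Among 17 genes listed as FOXO targets, 3 were lower (17.6%) and 0 higher, against 0.501% lower over all genes. The list's median difference was -0.03 and turned to 0.03 with TMM scaling. The 3 lower genes were Ilp6, daw and tobi, and whether FOXO controls any of them in these larvae was not tested. Ilp6, the insulin-like peptide made by the fat body, had 609, 554 and 631 adjusted counts in InRCA_HS, against 980, 772 and 1085 in control_HS and 2400, 1747 and 2287 in InRCA_noHS. InRCA_HS was lowest, control_HS intermediate and InRCA_noHS highest, with no overlap between any of the groups. Its difference from the average was -1.24 (log2, SE 0.15, adjusted p = 0.00434), and it passed in all 9 leave-one-out fits. Against control_HS alone Ilp6 was 1.57-fold lower and missed the threshold (limma, adjusted p = 0.0793). Against InRCA_noHS alone it was 3.55-fold lower (limma, adjusted p = 0.000575).

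The activin-like ligand gene daw had 776, 815 and 1064 adjusted counts in InRCA_HS, against 1433, 1394 and 1898 in control_HS and 2011, 1657 and 1880 in InRCA_noHS. Here the uninduced groups overlapped and lay above InRCA_HS alike, and the difference was -0.95 (log2, adjusted p = 0.0177). The alpha-glucosidase gene tobi, a target of insulin-producing cells and of the AKH axis, had 46.7, 28.3 and 75.4 adjusted counts in InRCA_HS, against 112, 383 and 254 in control_HS and 104, 157 and 142 in InRCA_noHS. Its difference was -1.86 (log2, adjusted p = 0.0438), but it passed in only 2 leave-one-out fits, with the highest adjusted p (0.17) without InRCA_HS replicate 2, and edgeR gave 0.0591.

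InR was not among the 17 genes listed as FOXO targets. Thor, bmm, Lip4 and Pepck gave no call. Thor, the translational repressor 4E-BP, had 2141, 2106 and 1324 adjusted counts in InRCA_HS, against 1415, 945 and 879 in control_HS and 2606, 1387 and 2014 in InRCA_noHS, a difference of 0.34 (log2, adjusted p = 0.572). The lipase gene bmm differed by 0.09 (adjusted p = 0.833), and Lip4, a lipase, by -0.81 (adjusted p = 0.137). Pepck, the gluconeogenic carboxykinase, had 5197, 6594 and 14998 adjusted counts in InRCA_HS, against 13143, 30852 and 23698 in control_HS and 7418, 9679 and 5712 in InRCA_noHS. InRCA_HS overlapped both uninduced groups, and the difference from the average was -0.65 (adjusted p = 0.447).

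Of 17 nutrient signals secreted by the fat body, Ilp6 and daw were the only calls (11.8% lower, against 0.501% over all genes). Differences were below 0 in 13 of the 17, with a median of -0.24, against 6126 of 10372 over all genes. The leptin-like cytokine upd2 missed the threshold (adjusted p = 0.249), and ImpL2, a binding protein of insulin-like peptides, differed by 0.57 (log2, adjusted p = 0.232). A few other secreted factors outside the list were called and are named here after their values had been seen. CG8317 (Lst, limostatin), a peptide hormone that lowers insulin secretion, had 3513, 2578 and 3634 adjusted counts in InRCA_HS, against 6996, 8698 and 9733 in control_HS and 6088, 4397 and 5298 in InRCA_noHS. It stood apart, with a difference of -1.05 (log2, adjusted p = 0.0202). The FGF ligand gene bnl differed by -0.97 (log2, adjusted p = 0.0359), whereas os (upd1), a JAK/STAT ligand gene, was higher by 1.90 (adjusted p = 0.0496). The os values were 90.9, 31.1 and 40.3 adjusted counts in InRCA_HS, against 9.65, 28.6 and 13.5 in control_HS. The call for os held in 2 leave-one-out fits and that for bnl in 3. With a pseudocount of 5, os missed the threshold (limma, adjusted p = 0.0502).

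Within the lists of fat metabolism, the calls for breakdown and storage release were all falls, and the single call in synthesis was a rise. These lists were chosen with earlier results of these data known, and genes outside them were not reviewed for this. GRHR (AkhR in the current annotation) encodes the receptor of adipokinetic hormone, which mobilises fat. It had 190, 220 and 249 adjusted counts in InRCA_HS, against 364, 599 and 550 in control_HS and 610, 446 and 446 in InRCA_noHS. The uninduced groups overlapped, and the InRCA_HS mean was 2.26-fold lower than the average (log2 difference -1.18, SE 0.19, adjusted p = 0.0171). CG5966, a lipase of the pancreatic type, had 2255, 2010 and 2184 adjusted counts in InRCA_HS, against 4052, 3052 and 5908 in control_HS and 11491, 11071 and 11052 in InRCA_noHS. Its groups fell in the same order as those of Ilp6, and its difference was -1.67 (log2, SE 0.19, adjusted p = 0.00313). These were 2 of 13 genes of lipases and lipid droplets (15.4% lower, against 0.501% over all genes), whose median was -0.14. CG5966 passed in all 9 leave-one-out fits and GRHR in 7, with its highest adjusted p (0.0968) without InRCA_HS replicate 1.

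For beta-oxidation, 2 of 23 genes were lower (8.7%) and 0 higher, against 0.501% lower over all genes. The median was -0.45, and 20 of 23 differences were below 0, against 6126 of 10372 over all genes. The median was -0.66 against control_HS and -0.28 against InRCA_noHS. The gene whd, encoding carnitine palmitoyltransferase, which admits fatty acids to mitochondria, had 988, 897 and 969 adjusted counts in InRCA_HS, against 1206, 1742 and 2108 in control_HS and 2048, 1767 and 2062 in InRCA_noHS. CG12262 (Mcad), the medium-chain acyl-CoA dehydrogenase, had 4372, 4141 and 3791 adjusted counts in InRCA_HS, against 5807, 7472 and 12005 in control_HS and 11376, 8241 and 9075 in InRCA_noHS. For both genes the InRCA_HS libraries lay close together and below all others, with differences of -0.91 (adjusted p = 0.0286) and -1.09 (adjusted p = 0.0414). Both passed in only 3 leave-one-out fits, with highest adjusted p-values of 0.117 without InRCA_HS replicate 2 and 0.141 without InRCA_HS replicate 1. Against control_HS alone whd and CG12262 missed the threshold (limma, adjusted p = 0.0632 and 0.0699). Against InRCA_noHS alone they passed (limma, adjusted p = 0.0188 and 0.0305). Without control_HS replicate 1, 7 genes of the list were lower, against 288 of 10372 over all genes. CG9527 (Acox3), a peroxisomal oxidase, went against the list with a difference of 0.63 (adjusted p = 0.0805).

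Of 16 lipid synthesis genes, 1 was called (6.25% higher, against 0.877% over all genes). This was ATPCL, the ATP citrate lyase that supplies acetyl-CoA for fatty acid synthesis. It had 6679, 6857 and 7097 adjusted counts in InRCA_HS, against 3785, 4750 and 3104 in control_HS and 2834, 2572 and 2200 in InRCA_noHS. It stood apart with a difference of 1.15 (log2, SE 0.16, adjusted p = 0.00721), and it passed in all 9 leave-one-out fits. The next enzymes did not follow it. ACC, the acetyl-CoA carboxylase, had 3980, 4939 and 7345 adjusted counts in InRCA_HS, against 5179, 14055 and 5826 in control_HS and 1016, 810 and 824 in InRCA_noHS, so that both heated groups overlapped far above the unheated one (difference from the average 1.03, adjusted p = 0.134). CG3523, a fatty acid synthase, differed by 0.74 (log2, adjusted p = 0.297), and InRCA_HS overlapped control_HS there too. The list's median was 0.23 against the average, but -0.26 against control_HS and 0.65 against InRCA_noHS.

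The 10 genes of NADPH supply and the pentose phosphate path were divided, with 5 differences above 0, 5 below and a median of 0.0. Zw, glucose-6-phosphate dehydrogenase, had 597, 738 and 599 adjusted counts in InRCA_HS, against 562, 895 and 303 in control_HS and 199, 160 and 131 in InRCA_noHS (difference 1.12, adjusted p = 0.0901). Men, the malic enzyme, had 1516, 1649 and 1998 adjusted counts in InRCA_HS, against 3214, 7041 and 5382 in control_HS and 4110, 2310 and 2855 in InRCA_noHS. Its InRCA_HS libraries were all below the others, but its difference of -1.17 (log2, adjusted p = 0.051) missed the threshold. Of the 10 genes of this list limma and edgeR called 0, although 5 had an unadjusted p under 0.05. DESeq2 called 2 higher and 1 lower, against 298 and 181 of 10372 over all genes.

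**Figure D3:**
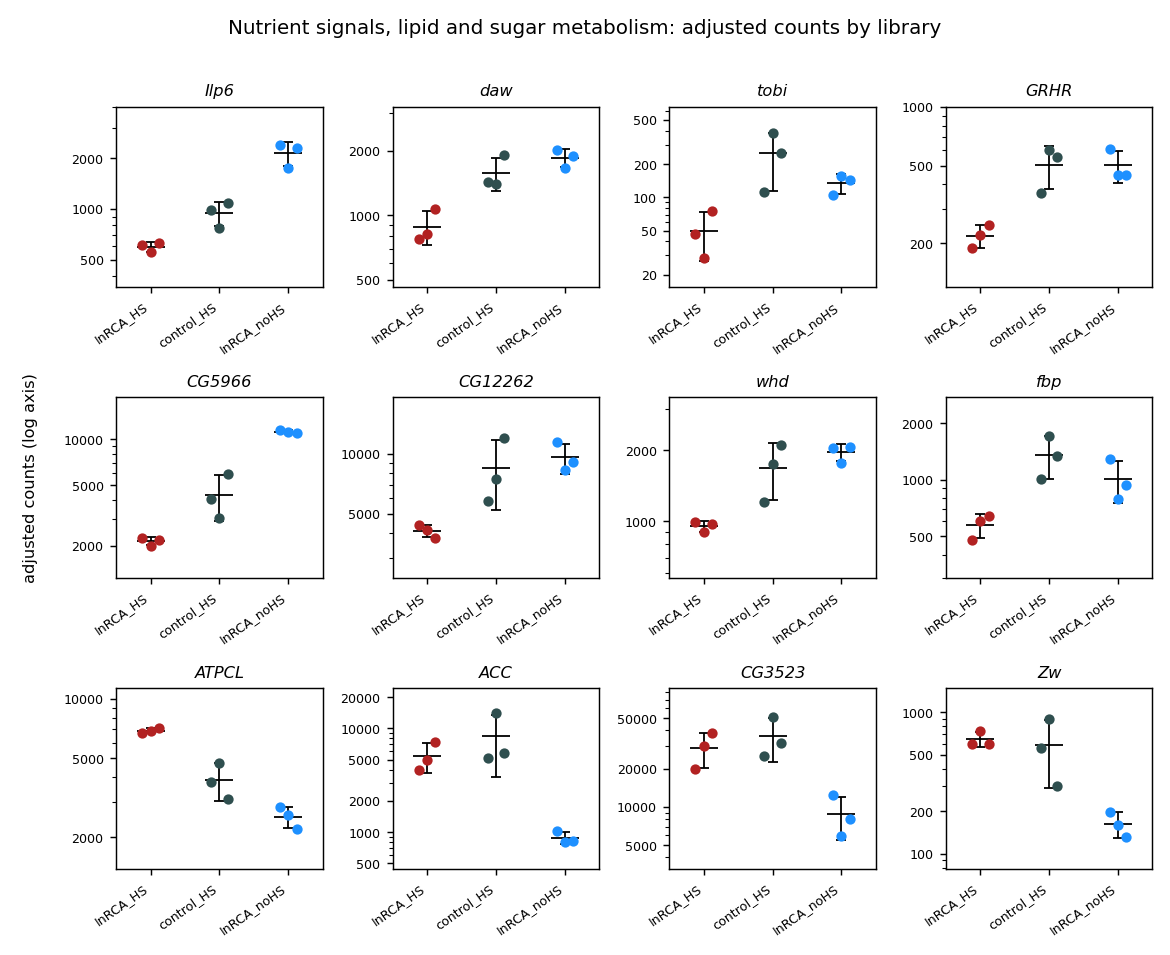
Adjusted counts (log axis) in each library for 12 genes of nutrient signalling and metabolism, with the mean and SD of each group of 3. From Ilp6 to fbp the 3 InRCA_HS libraries lie below all others, for ATPCL they lie above, and for ACC, CG3523 and Zw InRCA_HS overlaps control_HS.

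In sugar metabolism, fbp was the only call of 17 genes of glycogen, trehalose and gluconeogenesis (5.88% lower, against 0.501% over all genes). The list's median was -0.37. The gene fbp encodes fructose-1,6-bisphosphatase, which runs opposite to glycolysis. It had 479, 601 and 644 adjusted counts in InRCA_HS, against 1012, 1714 and 1336 in control_HS and 1285, 789 and 935 in InRCA_noHS. InRCA_HS lay below both, and the average was 2.0-fold above it (adjusted p = 0.0421), but fbp missed the threshold with TMM scaling (adjusted p = 0.0519) and with edgeR (0.0579). It passed in 2 leave-one-out fits. CG33138 (AGBE), the glycogen branching enzyme, was high in both heated groups, with 2536, 3166 and 3796 adjusted counts in InRCA_HS, 2272, 6518 and 2791 in control_HS and 853, 690 and 617 in InRCA_noHS (difference 0.99, adjusted p = 0.134). Of 14 glycolysis genes limma and edgeR called 0 and DESeq2 called 1; 12 had differences below 0, with a median of -0.32. Tobi was the only call of 11 sugar-responsive regulators and digestive enzymes (9.09% lower, against 0.501% over all genes).

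Several called genes of amino acid metabolism were named after their values had been seen. The gene asparagine-synthetase was higher, with 3186, 5110 and 3985 adjusted counts in InRCA_HS, against 1246, 2999 and 2612 in control_HS and 1060, 489 and 540 in InRCA_noHS (difference 1.76, adjusted p = 0.0244). Oat, ornithine aminotransferase, was lower, with a difference of -0.99 (log2, adjusted p = 0.0393). So were Got2, the mitochondrial aspartate aminotransferase, at -0.94 (adjusted p = 0.0429), and aralar1, the mitochondrial aspartate-glutamate carrier, at -0.88 (adjusted p = 0.0414). All 4 stood apart from the 6 other libraries. The calls for Oat, Got2 and aralar1 held in at most 2 leave-one-out fits, and asparagine-synthetase held in 4.

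In protein synthesis, 2 of 21 aminoacyl-tRNA synthetase genes were higher (9.52%, against 0.877% over all genes), and their list's median was 0.00. Aats-cys (CysRS) had 861, 1021 and 824 adjusted counts in InRCA_HS, against 496, 706 and 382 in control_HS and 360, 335 and 324 in InRCA_noHS. Its difference was 1.11 (log2, adjusted p = 0.0177), and that of Aats-trp (TrpRS) was 0.73 (adjusted p = 0.0364). Both stood apart above the 6 other libraries. Of 28 genes of ER translocation and folding, 2 were higher (7.14%, against 0.877% over all genes). They were Sec61gamma and Sec61beta, small subunits of the channel through which secreted proteins enter the ER. Sec61gamma had 2412, 3332 and 3179 adjusted counts in InRCA_HS, against 1680, 2344 and 1754 in control_HS and 935, 1156 and 1126 in InRCA_noHS (difference 1.05, adjusted p = 0.0135). Sec61beta differed by 0.91 (adjusted p = 0.0347). The channel's large subunit, Sec61alpha, differed by 0.65 (adjusted p = 0.125), with InRCA_HS among the control_HS values. The list's median was 0.32 against the average, -0.02 against control_HS and 0.75 against InRCA_noHS.

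Cytosolic ribosomal proteins leaned lower without a call. Of 86 genes, 85 had differences below 0, with a median of -0.49, and 30 had all 3 InRCA_HS libraries below the 6 others, against 4.09% of all genes. Limma and edgeR called 0 of them, although 59 had an unadjusted p under 0.05. DESeq2 called 19 of them lower, against 181 of 10372 over all genes. RpL32 had 11303, 10468 and 8515 adjusted counts in InRCA_HS, against 18398, 22949 and 20407 in control_HS and 13993, 12396 and 12495 in InRCA_noHS (difference -0.70, adjusted p = 0.0726). RpS14a came nearest to the threshold, at -0.69 (adjusted p = 0.0609). Without control_HS replicate 1, 23 of the 86 were lower, against 288 of 10372 over all genes. Quantile normalization moved the list's median to -0.22.

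Proteasome subunits and the coats of transport vesicles had differences from the average that were mostly above 0. Of 28 proteasome genes 26 had differences above 0, with a median of 0.29, and the proteasome lid gene Rpn5 had 2245, 2876 and 1723 adjusted counts in InRCA_HS, against 1441, 1604 and 1255 in control_HS and 1643, 1451 and 1545 in InRCA_noHS (difference 0.59, adjusted p = 0.122). All 15 COPI and COPII genes had differences above 0, against 4238 of 10372 over all genes, with a median of 0.24 against the average, but -0.07 against control_HS and 0.55 against InRCA_noHS. For the proteasome these medians were 0.26 and 0.28. In both lists limma and edgeR called 0; unadjusted p-values under 0.05 were 10 and 1, and DESeq2 called 1 proteasome gene and 0 coat genes. Of 26 genes of ribosome biogenesis and Myc, limma, edgeR and DESeq2 called 0, with 2 unadjusted p-values under 0.05 and a median of -0.07.

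**Figure D4:**
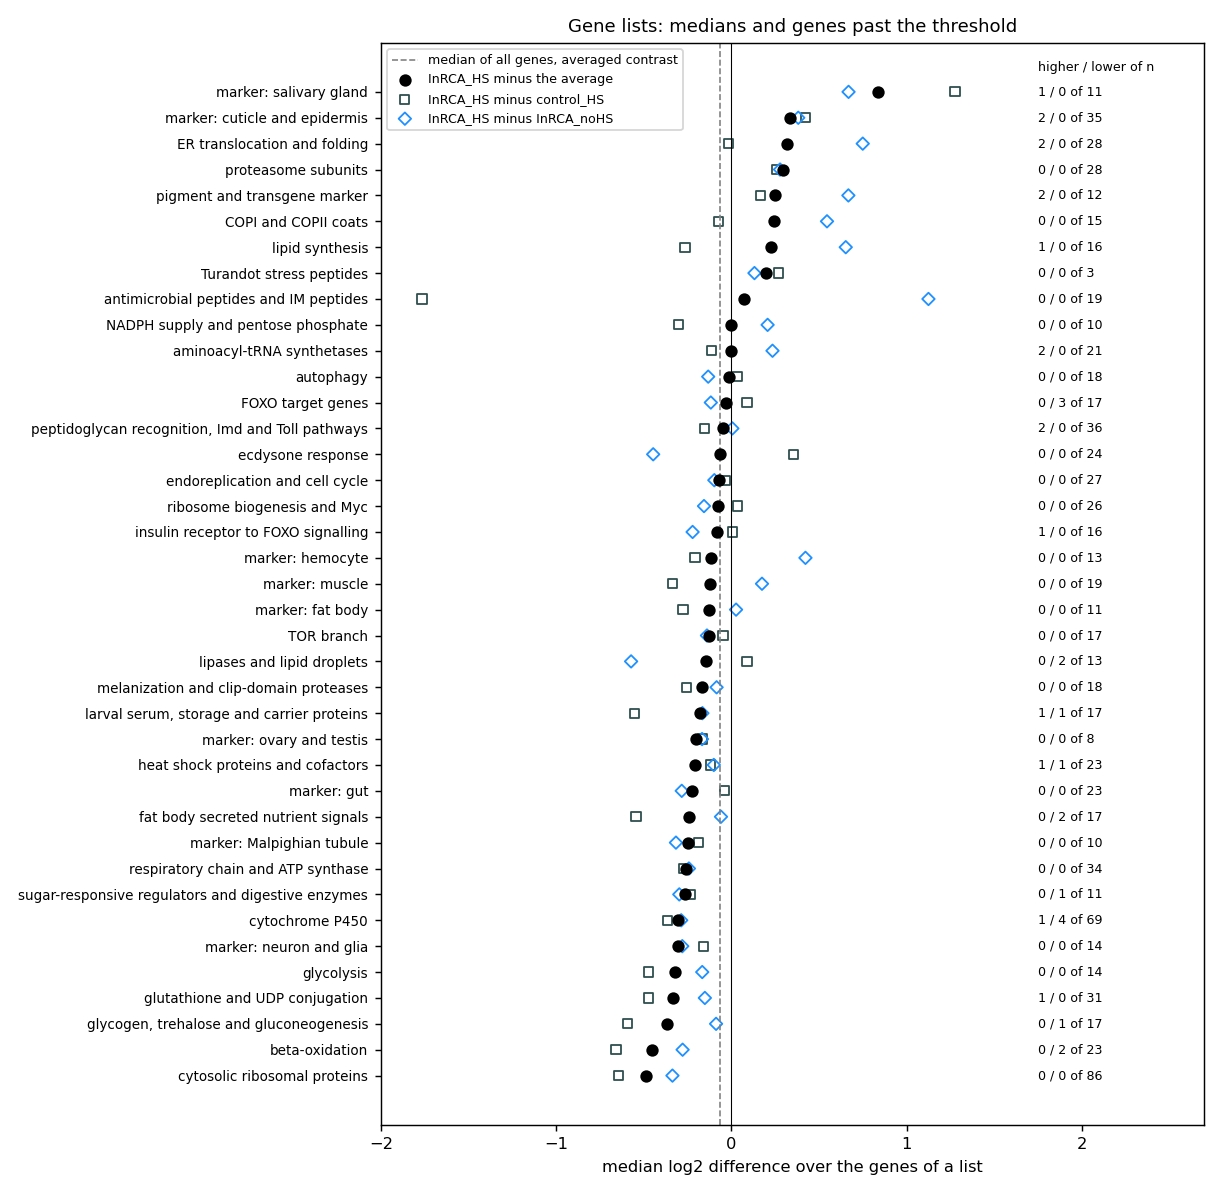
Median log2 difference over the genes of each list with at least 3 genes, against the average (filled) and against each uninduced group (open), with the numbers of genes past the threshold at the right. Ribosomal proteins and beta-oxidation have the lowest medians against the average, -0.49 and -0.45, and for antimicrobial peptides the open symbols lie far apart on both sides of 0.

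Among 23 heat shock genes, Hsp70Bb was higher (4.35%, against 0.877% over all genes) and Hsp83 lower (4.35%, against 0.501%). Hsp70Bb, a heat-inducible chaperone gene, had 662, 402 and 520 adjusted counts in InRCA_HS, against 34.8, 107 and 148 in control_HS and 33.5, 134 and 42.3 in InRCA_noHS. The uninduced groups overlapped, although only one of them had been heated, and the difference from the average was 2.89 (log2, SE 0.49, adjusted p = 0.0202). Its near-identical copies did not follow: Hsp70Ba, Hsp70Bbb and Hsp70Bc differed by -0.99, -1.23 and -0.39, with adjusted p-values of at least 0.33. How the authors' counting divides reads among these copies is not given, so the value of each is uncertain. Transgenes of the UAS type commonly carry a short Hsp70 promoter, and Hsp70Bb moved with InR and w; the part of the transgene in its value was not tested. Hsp70Bb passed in 5 leave-one-out fits, with its highest adjusted p (0.105) without InRCA_HS replicate 1.

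Hsp83, the fly's HSP90 chaperone, had 6626, 8453 and 8365 adjusted counts in InRCA_HS, against 10674, 11835 and 12444 in control_HS and 17071, 18056 and 20468 in InRCA_noHS. The 3 groups did not overlap, and the difference was -0.92 (log2, adjusted p = 0.0202). Against control_HS alone Hsp83 missed the threshold (limma, adjusted p = 0.115), and against InRCA_noHS alone it passed (0.00582).

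Of 69 cytochrome P450 genes, 4 were lower (5.8%, against 0.501% over all genes) and 1 higher (1.45%, against 0.877%), with a median of -0.31. Besides Cyp6w1 and Cyp28d1, Cyp6d5 stood apart, with 1933, 2543 and 2025 adjusted counts in InRCA_HS, against 3952, 3748 and 5431 in control_HS and 4995, 5249 and 4559 in InRCA_noHS (difference -1.10, adjusted p = 0.0103). Cyp309a1 was also lower, but it overlapped InRCA_noHS, and the one higher gene, Cyp6t1, did so too. Without control_HS replicate 1, 12 of the 69 were lower, against 288 of 10372 over all genes. Of 31 glutathione and UDP conjugation genes, GstD4 was the only call (3.23% higher, against 0.877% over all genes). It had 33.2, 43.5 and 53.5 adjusted counts in InRCA_HS, against 21.3, 23.2 and 16.8 in control_HS and 7.97, 9.24 and 6.61 in InRCA_noHS (difference 1.67, adjusted p = 0.0135).

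For antimicrobial and immune-induced peptide genes the uninduced groups lay far apart, but less so for the recognition and pathway genes. The median of the latter was -0.15 against control_HS and 0.01 against InRCA_noHS. Of 19 antimicrobial and immune-induced peptide genes limma and edgeR called 0, DESeq2 called 1 and 3 had an unadjusted p under 0.05. Their median was 0.07 against the average, but -1.76 against control_HS and 1.12 against InRCA_noHS. Dpt, encoding diptericin, had 265, 124 and 584 adjusted counts in InRCA_HS, against 1567, 2025 and 1366 in control_HS and 378, 266 and 248 in InRCA_noHS. The control_HS libraries were all high, and the other groups overlapped (difference from the average -1.36, adjusted p = 0.12). Of 36 genes of peptidoglycan recognition and the Imd and Toll pathways, PGRP-SC2 and grass were higher (5.56%, against 0.877% over all genes). PGRP-SC2, a secreted amidase that degrades peptidoglycan, had 1464, 2008 and 4418 adjusted counts in InRCA_HS, against 870, 2248 and 825 in control_HS and 43.1, 123 and 111 in InRCA_noHS. Both heated groups overlapped, as they did for grass, a protease upstream of Toll, and the differences from the average were 2.89 (adjusted p = 0.0135) and 0.89 (adjusted p = 0.0419).

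Markers of other larval organs were examined because the fat bodies were collected by shearing. All 11 salivary gland markers had differences above 0, with a median of 0.84. Sgs5, a glue protein, was their only call (9.09% higher, against 0.877% over all genes). It was higher by 2.54 (log2, adjusted p = 0.00682). Sgs5 had 28613, 19645 and 10002 adjusted counts in InRCA_HS, against 1181, 847 and 937 in control_HS and 16571, 6846 and 7725 in InRCA_noHS. The summed level of the 11 markers ranged over 60634 to 182620 in InRCA_HS, 15796 to 41574 in control_HS and 35226 to 107470 in InRCA_noHS. InRCA_HS therefore overlapped InRCA_noHS and lay above control_HS. In these bulk samples more cells of a type and more RNA per cell cannot be told apart.

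Of 35 cuticle and epidermis markers, 24 had differences above 0, with a median of 0.34. Cpr11A and Lcp4 were higher (5.71%, against 0.877% over all genes). The 35 markers summed to 35959 to 48148 in InRCA_HS, 22351 to 35504 in control_HS and 27362 to 37872 in InRCA_noHS. Lcp4, a larval cuticle protein, overlapped InRCA_noHS (difference 1.61, adjusted p = 0.0469) and passed in 2 leave-one-out fits. The part of these tissues in the rises of Cpr11A, obst-E and Sgs5 was not tested.

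For the remaining organs limma called no gene. The 14 neuron and glia markers summed to 3736 to 5558 in InRCA_HS, below 6081 to 8910 in control_HS and 6714 to 7549 in InRCA_noHS, with 13 of 14 differences below 0. Most of that sum was Syt1, a synaptic vesicle protein, whose difference was -0.91 (adjusted p = 0.0609). The 19 muscle markers summed to 39418 to 42362 in InRCA_HS, 43348 to 81641 in control_HS and 27688 to 44040 in InRCA_noHS. The 13 hemocyte markers summed to 16849 to 19669 in InRCA_HS, 17150 to 23173 in control_HS and 21751 to 27396 in InRCA_noHS. The 23 gut, 10 Malpighian tubule and 8 ovary and testis markers had sums that overlapped in all groups. The 2 oenocyte markers were Cyp4g1 and the fatty acid synthase v(2)k05816. They summed to 149 to 204 in InRCA_HS, against 418 to 598 in control_HS and 230 to 451 in InRCA_noHS. InRCA_HS lay below both uninduced groups, which overlapped each other. The 11 fat body markers had a median of -0.12 and 0 calls by limma and edgeR, against 2 by DESeq2 and 2 with an unadjusted p under 0.05.

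In all, 22 of the 40 lists held no called gene. They comprise 437 genes, of which 117 had an unadjusted p under 0.05, edgeR called 2 and DESeq2 called 38. Over all 10372 genes, 1535 had such an unadjusted p. There edgeR called 124 higher and 33 lower, and DESeq2 called 298 higher and 181 lower. These 22 lists were set apart by having no call in limma. Among them are the 24 genes of the ecdysone response, with a median of -0.06 against the average, but 0.35 against control_HS and -0.45 against InRCA_noHS. The 27 genes of endoreplication and cell cycle had a median of -0.07, and the 18 autophagy genes one of -0.02. The 34 genes of the respiratory chain and ATP synthase had a median of -0.26 with 28 below 0, and the 18 genes of melanization and clip-domain proteases one of -0.17. The 3 Turandot stress peptide genes had a median of 0.20. Of 17 larval serum, storage and carrier protein genes, Fbp2 was higher (5.88%, against 0.877% over all genes) and Obp99a lower (5.88%, against 0.501%). Their list's median was -0.18. Obp99a, a secreted odorant-binding protein, had 658, 1002 and 758 adjusted counts in InRCA_HS, against 1862, 2159 and 1902 in control_HS and 1566, 1380 and 1555 in InRCA_noHS. It stood apart with a difference of -1.11 (log2, SE 0.15, adjusted p = 0.00636) and passed in all 9 leave-one-out fits.

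The number of calls depended on single libraries. Without control_HS replicate 1, 130 genes were higher and 288 lower, and all 143 calls were among them. Without InRCA_HS replicate 1, 30 were higher and 6 lower. In all 9 leave-one-out fits, 24 of the 91 higher genes and 3 of the 52 lower genes (Ilp6, CG5966 and Obp99a) passed. With TMM scaling 73.6% of the calls were higher, with edgeR on recovered reads 79%, and with array quality weights 40.4%, against 63.6% in the values given above.

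**Figure D5:**
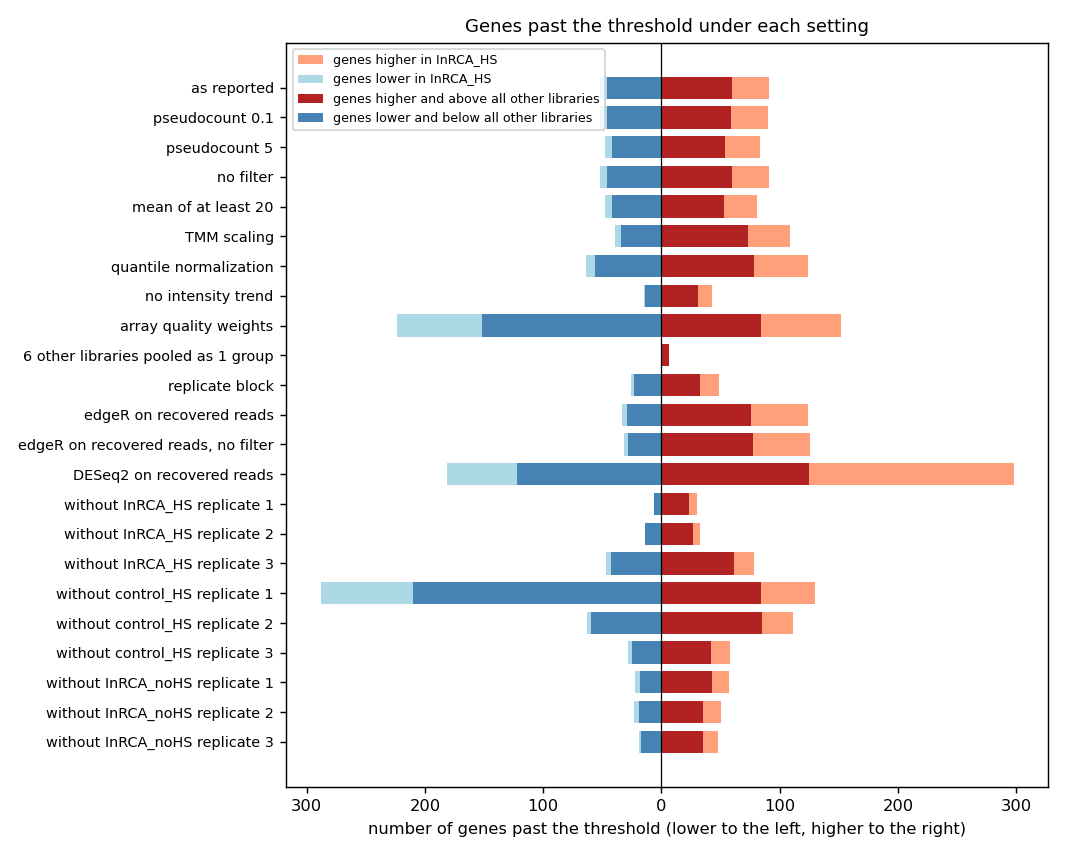
Number of genes past the threshold under each setting, lower to the left and higher to the right, with genes that stood apart from all other libraries in the darker shade. The longest lower bars are those without control_HS replicate 1 (288) and with array quality weights (224), and the fit with the 6 other libraries as 1 group has 6 higher genes and 0 lower.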

How the data were processed

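RNA was measured in 9 libraries, grouped by their titles. Cufflinks 1.1.0, TopHat 1.3.2 and Bowtie 0.12.7, and dm3 as the build, appear in the submitters' processing notes. How reads were counted, with which annotation, strand setting and gene filter, is not given in the sources used here, so reads of overlapping, antisense and near-identical genes may be shared. The deposited signal is 1 value per gene and library, which its values show to be counts adjusted by the authors to a common library size; FPKM had been considered possible. Undoing a quantile adjustment of negative binomial counts, with 1 factor per library and a dispersion of 0.07187, gave whole reads to within 0.1 for 99.3% of 38615 values up to 100 (94.13% in InRCA_noHS replicate 1). The lowest value was 0.108, and every gene had at least 1 recovered read in every library, so genes without reads are not seen here.

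Log2(adjusted count + 1) was fitted with limma 3.58.1 in R 4.3.3, with an intensity trend, 3 group means and all 9 libraries. P-values are two-sided and adjusted by the Benjamini-Hochberg method over 10372 genes. A fold on this scale understates changes of low genes. The filter, a mean of at least 1, removed 0 genes. Gene names are those of the files, and 9928 IDs had a current symbol. Of the entries of 40 lists, 62 were not matched. The members and lists were chosen with earlier results of these data known. The genes named were InR and w, the 14 highest and 14 lowest differences among called genes that stood apart, up to 4 of the smallest p in each list with some preset genes, and the 6 calls with the uninduced groups furthest apart; others are said to be chosen later. Alternatives were other pseudocounts (0.1 and 5), no filter or a minimum mean of 20, TMM, quantile normalization, no trend, array weights, pooling the 6 others, a replicate block, edgeR 4.0.16 and DESeq2 1.42.0 on recovered reads, and leaving out each library. Steps were tested on simulated data. Figures used Python 3.11.15 and matplotlib 3.10.9.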

Additional observations from a re-analysis of the deposited data

How the results depend on the processing

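The 91 higher and 52 lower genes, and the 60 and 46 of them that stood apart, moved by less than 1.5 times with pseudocounts of 0.1 and 5, without a filter or with a minimum mean of 20, and with TMM scaling or quantile normalization. Without an intensity trend 43 were higher and 15 lower (31 and 14 standing apart). Array quality weights gave 152 and 224 (152 lower genes standing apart). A fit with the 6 other libraries as 1 group, whose spread then holds the distance between the uninduced groups, gave 6 and 0 (6 and 0). EdgeR on recovered reads called 33 lower genes (29 standing apart), or 32 (28) with no filter, and 124 higher. DESeq2 called 298 and 181 (125 and 122). Leaving out 1 library gave 30 to 130 higher and 6 to 288 lower genes, and 23 to 85 and 6 to 210 standing apart. The cause was not tested. No named gene past the threshold changed sign in these fits. Of the 143 calls 130 held with TMM scaling, 124 with edgeR, 131 with a pseudocount of 5 and 6 with the 6 others as 1 group. With the replicate number as a block, 49 were higher and 26 lower (33 and 23 standing apart), and 70 of the 143 held. Same-numbered libraries of different groups correlated at -0.245 to 0.121 in their deviations from the group means, so the numbers were not taken to pair libraries, and samples did not all correlate best with their own number. With 3 libraries per group, 1 library can decide a call. The planned description of promoter motifs was not run, since it needs promoter sequences that were not used here.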

Other observations

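The genes in this part were chosen after their values had been seen. Among the 24 higher genes that passed in all 9 leave-one-out fits were several without a described role here. CG4325 had 1099, 1114 and 1130 adjusted counts in InRCA_HS, against 786, 1017 and 802 in control_HS and 130, 107 and 112 in InRCA_noHS, so that its rise lay mostly against the unheated group (difference 1.81, adjusted p = 0.000135). The gene bnb had 762, 897 and 833 in InRCA_HS, 397, 460 and 218 in control_HS and 132, 96.7 and 148 in InRCA_noHS (difference 2.01, adjusted p = 0.00357). Ykt6, a SNARE of vesicle fusion, had 763, 1331 and 907 in InRCA_HS, against 537, 576 and 314 in control_HS and 207, 140 and 172 in InRCA_noHS (difference 1.79, adjusted p = 0.00633).

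Only 6 genes passed when the 6 uninduced libraries were fitted as 1 group, namely InR, w, Pu, CG15772, CG10914 and CG14567. CG14567 had 139, 157 and 134 adjusted counts in InRCA_HS, against 41.7, 48.7 and 44 in control_HS and 26.1, 36 and 38.6 in InRCA_noHS (difference 1.87, adjusted p = 0.00162). CG10914 had 173, 163 and 98.8 in InRCA_HS, against 54.3, 47.6 and 44.3 in control_HS and 39.8, 45.2 and 39.3 in InRCA_noHS. For all 6, InRCA_HS stood apart above both groups. CG43291 passed in all 9 leave-one-out fits although it overlapped InRCA_noHS, with 139, 150 and 207 adjusted counts in InRCA_HS, against 11.6, 8.28 and 15.7 in control_HS and 168, 142 and 150 in InRCA_noHS.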
